A study of Mus musculus with 6 samples.

Results

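Among the cells of Day 2 digits in a dish (DID) cultures were a small set with RNA of both *Hoxa13* and *Msx1*, here called members. Both genes are among the markers by which the paper named an interdigital cluster. Members are called by their rule and not as a cell type. Barcodes with at least 3000 UMIs (unique molecular identifiers, that is, RNA molecules counted), at most 7500 genes and at most 25% mitochondrial UMIs were kept, and a cell was a member when it held at least 1 UMI of *Hoxa13* and at least 3 of *Msx1*. Members were thus chosen by their measured UMIs of these 2 genes, and their levels are no result here. The rule found 415 members among 18691 filtered Day 2 cells. Replicate A held 251 of 8949 cells (2.80%, exact binomial 95% interval 2.47 to 3.17%), and replicate B held 164 of 9742 (1.68%, 1.44 to 1.96%). Among cells with at least 10000 UMIs the shares were 3.11% (2.74 to 3.52%) and 2.88% (2.45 to 3.35%), so that the intervals overlapped. All 6 libraries of the series held 54126 cells by the same filter.

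The cultures were grown at high density from distal forelimb mesenchyme of wild-type CD-1 mouse embryos at E11.5, pooled before dissociation, and carried no altered gene and no added agent other than culture medium with serum. The groups were Day 2, Day 7 and Day 10 of culture, each with replicates A and B from independent cultures and 1 droplet library per replicate. All comparisons at Day 2 were made within these libraries, as UMIs summed over the cells of a class (CPM, the UMIs of a gene scaled to a class sum of 1000000). With the library as a block, p-values at Day 2 rest on how the difference between classes varied over 2 cultures. That left 1 residual degree of freedom per gene, and most of the spread was borrowed from other genes. The prior degrees of freedom were 25.2 against the other cells, 23.3 against *Gdf5*-positive cells and 9.08 between *Aldh1a2* classes. In the fits of changes over days, 3 were residual and 92.9 prior. Intervals on shares of cells cover counting error only.

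Members were deeper than the remaining cells. Their median depth was 21301 UMIs in A and 27140.5 in B, against 19379 and 12577. Membership depended on that depth, since thinning every cell to 3000 UMIs before the rule was applied left 12 and 15 members. The sums were not corrected for it beyond library scaling, and its part in the differences was not tested other than in depth-matched or thinned cells. A call is described as lost where the gene no longer passed under the setting named. Unless another day is given, a call lost without replicate A or B refers to the Day 2 library, in fits where the libraries of all 3 days supply the spread, so that the lone Day 2 library is assumed to vary like them. The 2 Day 2 libraries shared 62 cell barcodes, and pairs of libraries shared 36 to 120. No doublet caller was run. Of the members, 31 and 47 lay in the deepest 10% of their library (12.4% and 28.7%), and 16 and 22 held at least 3 UMIs of *Acan*, a cartilage proteoglycan gene (6.37% and 13.4%, against 8.04% and 7.51% of the other cells).

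Interdigital mesenchyme is the tissue that separates the digit rays and later regresses by programmed cell death. *Hoxa13* encodes a homeodomain factor of the hand and foot plate, and *Msx1* a homeodomain repressor induced by BMP signals, the growth factors that drive digit separation. Retinoic acid, made by the enzyme ALDH1A2, is the second signal of this tissue, whereas FGFs from the apical ridge keep the distal mesenchyme alive and WNT5A directs outgrowth. Cartilage, joint and tendon cells form from neighbouring mesenchyme. In the GENCODE annotation of GRCm38, *Hoxa13* lies at chr6:52257694-52260880 and *Msx1* at chr5:37820485-37824583, both on the minus strand, and *Tfap2b*, which rose the most among the genes named below, at chr1:19208914-19238576 on the plus strand.

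Promoter sequences of 3 genes are shown because the results below turn on retinoic acid synthesis (*Aldh1a2*), a retinoic acid receptor (*Rarb*) and the posterior end of the *Hoxd* cluster (*Evx2*). Each is the 250 bases before a transcription start of RefSeq in GRCm38.p6, printed 5′ to 3′ on the strand of the gene, with capitals for a motif that was searched on both strands. *Rarb* (chr14:16575477-16575726, minus strand), *Aldh1a2* (chr9:71215539-71215788, plus strand) and *Evx2* (chr2:74659558-74659807, minus strand) read as follows. The *Rarb* start lies inside the GENCODE gene (chr14:16430839-16819156).
Rarb: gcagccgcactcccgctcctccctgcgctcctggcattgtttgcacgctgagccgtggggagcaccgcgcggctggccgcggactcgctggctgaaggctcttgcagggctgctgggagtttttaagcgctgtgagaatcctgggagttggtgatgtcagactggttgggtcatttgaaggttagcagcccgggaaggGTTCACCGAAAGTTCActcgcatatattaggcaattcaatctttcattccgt
Aldh1a2: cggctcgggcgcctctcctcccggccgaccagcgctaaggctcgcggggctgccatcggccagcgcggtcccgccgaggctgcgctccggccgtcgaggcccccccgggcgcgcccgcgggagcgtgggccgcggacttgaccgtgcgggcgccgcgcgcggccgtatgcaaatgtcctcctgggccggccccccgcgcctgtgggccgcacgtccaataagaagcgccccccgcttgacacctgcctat
Evx2: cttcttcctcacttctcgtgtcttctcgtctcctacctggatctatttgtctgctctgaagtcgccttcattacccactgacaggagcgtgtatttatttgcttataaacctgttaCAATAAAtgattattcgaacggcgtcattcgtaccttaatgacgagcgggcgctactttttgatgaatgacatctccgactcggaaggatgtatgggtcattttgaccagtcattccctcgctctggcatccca

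The motifs searched were GTTCA followed by any 6 bases and a second GTTCA, a direct repeat of a nuclear receptor half-site, and CAATAAA, a sequence of the kind HOX13 factors bind. The *Rarb* window held the direct repeat from 52 to 37 bases before the start, as did 22 of 32851 promoters of the same length (0.0670%). The *Evx2* window held CAATAAA from 134 to 128 bases before the start, as did 1381 promoters (4.20%). Neither motif was found in the *Aldh1a2* window. These are matches of letters only.

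The label was checked against *Hoxd13* and *Wnt5a*, the remaining markers named with it, and against *Aldh1a2*. *Hoxd13*, the *Hoxd* gene of the hand plate, stood at 149.6 and 148 CPM in members of A and B against 27.7 and 26.8 in all other cells (log2 fold change 2.39 ± 0.058). *Wnt5a* stood at 215 and 214 against 82.5 and 92.6 CPM (1.24 ± 0.053). Both genes were higher in members of both libraries, with no overlap between classes, as was already known when the members were chosen, so these values are a description. A UMI of *Hoxd13* was found in 80.1% and 74.4% of members, 26.5% and 19.8% of the other cells, and 7.14% and 5.69% of myogenic cells (at least 3 UMIs of *Myod1* and *Myog* together), which should lack it. Those myogenic cells had median depths of 25250 and 27323 UMIs, and in cells thinned to 3000 UMIs the 3 pairs of shares were 37.1% and 34.1%, 7.66% and 7.61%, and 1.19% and 2.37%.

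*Aldh1a2* was unevenly spread over the members. Summed levels were 213 and 325 CPM in members and 15.0 and 13.3 in the other cells, a log2 fold change of 4.15 ± 0.096. A UMI was present in 35.9% and 42.7% of members, in 7.09% and 5.84% of the other cells and in 2.98% and 4.27% of myogenic cells (thinned, 23.9% and 29.9%, 2.54% and 2.42% and 1.79% and 1.42%). The gene was thus detected in a minority of the members of each library, and they are called by their rule here and not as a cell type.

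Markers of most other cell types were low in members. Summed CPM of the muscle list of 10 genes was 50.8 and 80.9 against 649 and 505 in the other cells, and of the erythroid list of 6 genes 0.779 and 2.54 against 63.9 and 157. The macrophage list of 7 genes gave 0.779 and 0.423 against 25.1 and 13.0 CPM, with 3 and 5 genes at 0 in members. Ectoderm and apical ridge genes summed to 36.6 and 11.0 against 112 and 79.0 CPM. Endothelial genes gave 44.2 and 35.1 against 45.2 and 43.2 CPM, with 1 of 6 genes lower. The 6 Schwann cell and neural crest genes stood at 13.7 and 19.6 against 15.7 and 17.0 CPM, and none of them passed the test.

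Members varied in how firmly they met the rule. They held a median of 2 UMIs of *Hoxa13* in both libraries (range 1 to 11 in A and 1 to 20 in B) and of 6 and 7 UMIs of *Msx1* (3 to 48 and 3 to 55). Just inside the limit, the members with 3 UMIs of *Msx1* (60 and 38 cells) had *Hoxd13* at 80.3 and 85.3 and *Lhx9* at 93.8 and 60.5 CPM. Just outside it, cells with *Hoxa13* and 2 UMIs of *Msx1* (97 and 69 cells) had *Hoxd13* at 76.3 and 71.2 and *Lhx9* at 108 and 126 CPM. Across that limit *Hoxd13* was higher inside than outside in both libraries, whereas *Lhx9* was lower inside. Cells with at least 3 UMIs of *Msx1* but none of *Hoxa13* (193 and 165) had *Hoxd13* at 38.8 and 36.7 CPM, against 93.4 and 86.8 in members with 1 UMI of *Hoxa13* (79 and 61).

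Across all genes, members differed from the other Day 2 cells at 18% of the 16860 genes tested (edgeR quasi-likelihood test blocked by library, Benjamini-Hochberg adjusted p under 0.05), 7.49% being higher and 10.5% lower. The median log2 fold change of all genes tested was -0.019. Of the 14 genes of the interdigital list other than *Hoxa13* and *Msx1*, 12 were higher, 1 was lower, and their median log2 fold change was 1.14. This list was drawn up with earlier results of these data known, so its count is no independent evidence of its direction. The plot of Day 2 levels shows the genes named most often.

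**Figure D1:**
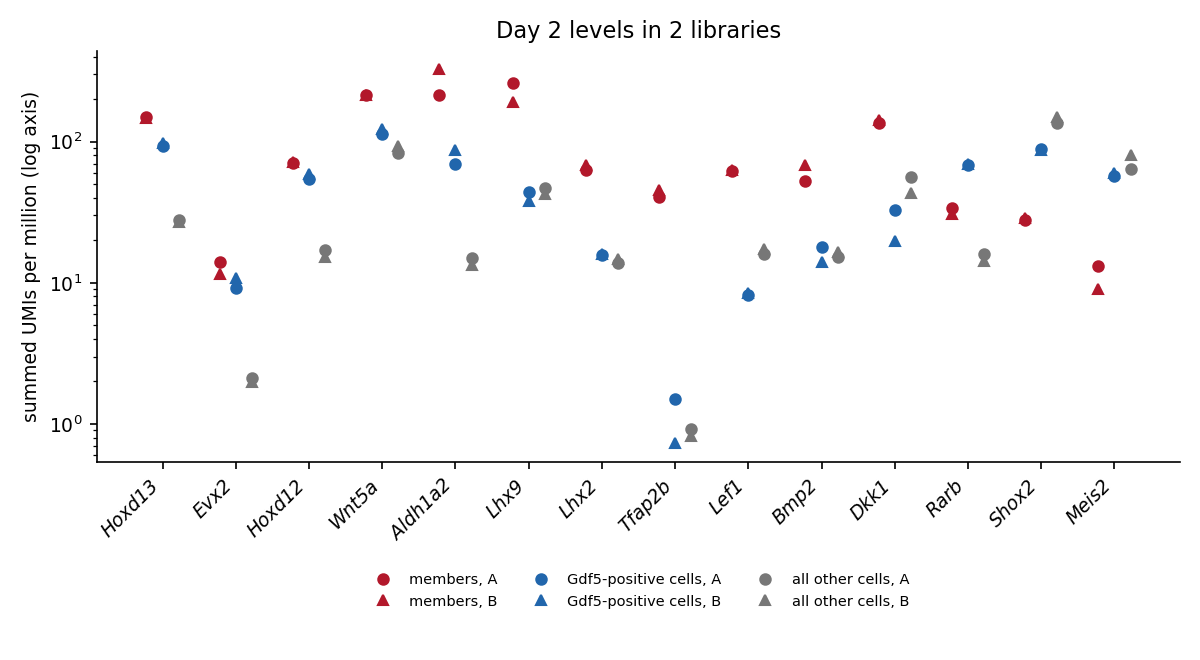
Summed CPM at Day 2 (log axis) for 14 genes in members, cells with at least 3 UMIs of Gdf5 and all other cells, 1 point per library (circles A, triangles B). Tfap2b stood at 40.5 and 45.6 CPM in members and below 2 CPM in both comparison classes, and Shox2 and Meis2 were lower in members than in either.

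The *Hoxd* genes of the hand plate were higher in members, and *Hoxd9* was not. *Hoxd12*, the neighbour of *Hoxd13*, was at 70.6 and 71.8 CPM in members and 17.0 and 15.3 in the other cells (log2 fold change 2.08 ± 0.081, edgeR adjusted p = 3.58e-17). *Evx2*, a homeobox gene next to *Hoxd13* whose promoter is printed above, was at 14.0 and 11.6 against 2.13 and 1.97 CPM (2.59 ± 0.21, edgeR adjusted p = 2.43e-10). The differences were smaller for the next genes of the cluster, with *Hoxd11* at 0.66 ± 0.048 and *Hoxd10* at 0.47 ± 0.078 (lost under 4 of 13 alternatives). *Hoxd9*, further along the cluster, was at 24.3 and 31.1 against 32.3 and 31.7 CPM (-0.29 ± 0.099, edgeR adjusted p = 0.0429), a call that was lost under 9 of 13 alternatives. Of 10 HOX genes tested beside *Hoxa13*, 5 were higher and 1 was lower.

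Factors of the upper limb were the reverse. None of 10 proximal limb factors was higher in members and 8 were lower, with a median log2 fold change of -1.15. *Meis1* and *Meis2*, homeobox genes of the upper limb, were at 2.34 and 1.27 and at 13.1 and 9.08 CPM in members of A and B, against 15.3 and 15.5 and 64.3 and 80.7 in the other cells (log2 fold changes -3.09 ± 0.22 and -2.71 ± 0.12). *Shox2*, needed for the upper arm skeleton, was at 27.7 and 28.9 against 136 and 150.4 CPM (-2.39 ± 0.073). All 3 were lower in both libraries, and each kept its call under all 13 alternatives.

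The largest rise by the rule for named genes was that of *Tfap2b*, an AP-2 transcription factor. It stood at 40.5 and 45.6 CPM in members and 0.920 and 0.827 in the other cells, a log2 fold change of 5.55 ± 0.19 (edgeR adjusted p = 2.57e-18). Its relative *Tfap2a* was at 7.79 and 8.87 against 1.83 and 1.55 CPM (2.23 ± 0.25, lost in thinned cells). The LIM homeobox genes *Lhx9* and *Lhx2*, which relay ridge signals to the distal mesenchyme, were also higher. *Lhx9* was at 259 and 190.1 against 47.1 and 42.4 CPM and *Lhx2* at 62.9 and 67.8 against 13.8 and 14.8, with log2 fold changes of 2.26 ± 0.061 and 2.13 ± 0.082. The LIM-domain partner *Lmo2* (27.4 and 16.5 against 3.28 and 2.61 CPM) and the zinc-finger genes *Zic2* (2.09 ± 0.12) and *Zic5* (2.10 ± 0.18) were also higher. In both libraries the members exceeded the other cells for each of these genes, which was a condition for any chosen by the rule for named genes. The list of 38 distal and patterning factors had 22 higher and 5 lower, with *Twist1* at 1.22 ± 0.050, *Mycn* at 1.51 ± 0.12 and *Gli3* at 0.66 ± 0.055.

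Other genes that the rule named were of mixed function. The lymphatic growth factor gene *Vegfd* was at 14.0 and 9.08 CPM in members against 1.93 and 1.41 in the other cells, *Ifitm1*, an interferon-induced membrane protein gene of early mesoderm, at 65.3 and 75.6 against 14.8 and 12.7, and the peptide hormone gene *Apela* at 7.17 and 18.0 against 2.31 and 2.86. Their log2 fold changes were 2.73 ± 0.23, 2.28 ± 0.091 and 2.13 ± 0.23. The 12 genes that fell the furthest were muscle and erythroid genes, among them the myosin gene *Myl4* (0.935 and 1.06 against 53.6 and 39.5 CPM) and the globin gene *Hbb-y* (0.312 and 1.27 against 25.5 and 84.5 CPM). The call for *Myl4* was lost when cells with at least 3 UMIs of *Acan*, or of *Myod1* and *Myog* together, were left out of both classes. This filter, named below by its genes only, takes out myogenic cells, so that loss is no evidence on the members.

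**Figure D2:**
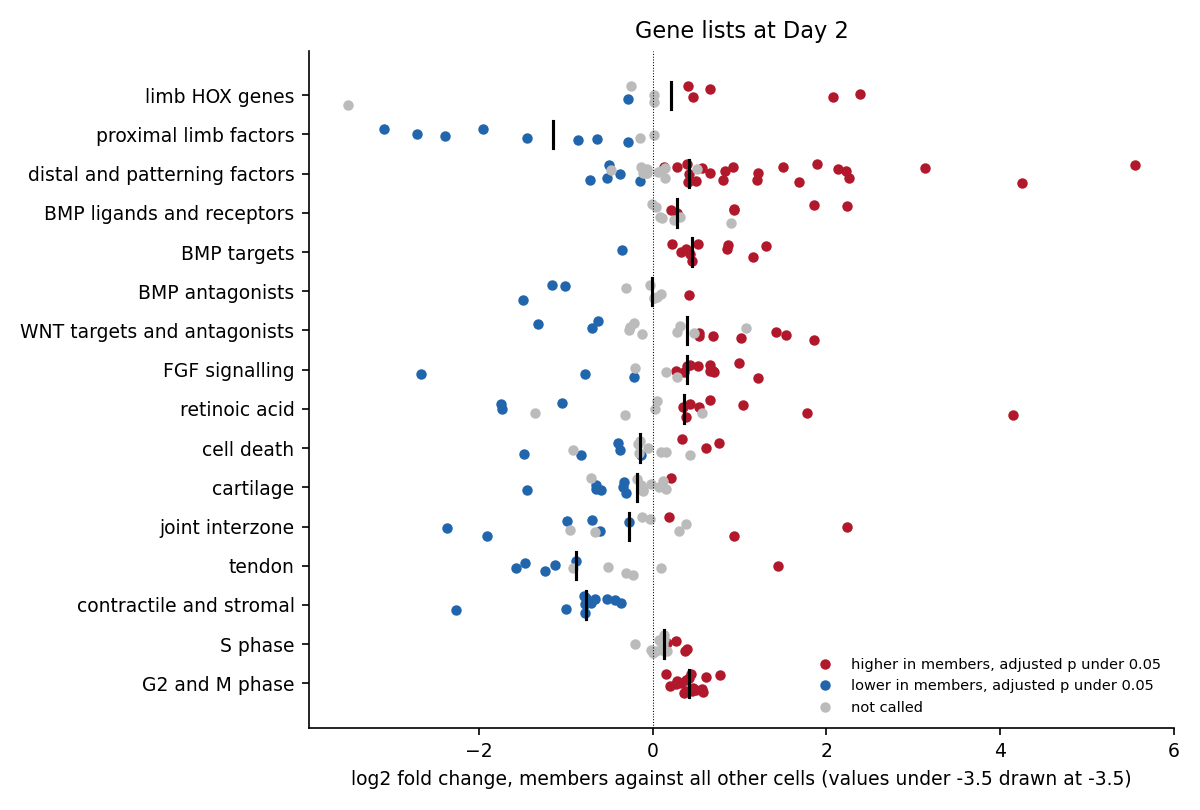
Log2 fold changes of members against all other Day 2 cells for the genes of 16 lists, 1 point per gene, red for genes called higher and blue for genes called lower at an edgeR adjusted p under 0.05, with a black bar at each list's median. The proximal limb list lies to the left (median -1.15) and the BMP target list to the right (0.46), and the rule genes Hoxa13 and Msx1 are not drawn.

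Several BMP ligands and most BMP targets were higher in members. *Bmp2*, a BMP ligand of the interdigit, was at 52.8 and 68.9 CPM in members and 15.3 and 16.6 in the other cells (log2 fold change 1.85 ± 0.086, edgeR adjusted p = 1.50e-15). *Bmp7* was at 44.2 and 52.6 against 23.0 and 25.2 CPM (0.94 ± 0.084), and *Bmp4* at 111 and 102 against 84.7 and 83.7 (0.29 ± 0.058), a call lost under 5 of 13 alternatives. In total 6 of 13 ligands and receptors were higher and none was lower. Of 11 BMP targets 10 were higher, the median being 0.46. *Msx2*, the relative of *Msx1*, was at 106 and 103 against 44.0 and 36.5 CPM (1.31 ± 0.064), and *Bambi*, a pseudoreceptor that BMP signals induce, at 149 and 173 against 86.8 and 81.9 (0.87 ± 0.059). *Id4* was the target that was lower (-0.35 ± 0.071, lost under 4 of 13 alternatives). Cells close to the rule came near the members for some of these genes. With *Hoxa13* and 2 UMIs of *Msx1*, *Bmp7* was at 43.8 and 52.6 and *Msx2* at 89.4 and 78.4 CPM. With at least 3 UMIs of *Msx1* but none of *Hoxa13*, they were at 27.3 and 35.6 and at 147 and 111 CPM.

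Secreted antagonists of BMPs went the other way for 3 of 10 genes, and 1 of the 10 was higher. Follistatin (*Fst*) was at 68.7 and 50.1 CPM in members and 134 and 121 in the other cells (-1.16 ± 0.069), gremlin (*Grem1*) at 7.01 and 5.70 against 12.2 and 12.7 (-1.005 ± 0.16), and *Chrdl1* at 4.21 and 6.13 against 14.4 and 12.6 (-1.49 ± 0.18). Members were below the other cells in both libraries for all 3. The *Grem1* call was lost in thinned cells and without dividing cells.

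WNT genes were split. The transcription factor genes *Lef1* and *Tcf7*, which carry the canonical WNT response, were at 61.9 and 63.2 and at 4.83 and 3.80 CPM in members of A and B, against 15.9 and 17.3 and 1.51 and 1.36 (log2 fold changes 1.86 ± 0.082 and 1.54 ± 0.31). The *Tcf7* call was lost in thinned cells, without dividing cells and without replicate A. *Dkk1*, a secreted WNT antagonist found in the interdigit, was at 135 and 143 against 56.1 and 43.2 CPM (1.42 ± 0.071). *Sfrp1*, another antagonist, was lower at 23.99 and 20.1 against 55.2 and 50.5 CPM (-1.32 ± 0.088), and so was the joint ligand *Wnt4* at 8.10 and 1.48 against 27.3 and 23.8 (-2.37 ± 0.20). Of 18 targets and antagonists 7 were higher and 3 lower, and of 19 ligands and receptors, with *Wnt5a* among them, 4 were higher and 3 lower.

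FGF signalling genes were mostly higher, with 11 higher and 3 lower of 17 (median 0.39). *Fgf10*, the mesenchymal ligand that maintains the ridge, was at 12.9 and 10.1 CPM in members and 5.20 and 4.34 in the other cells (1.22 ± 0.17). The feedback inhibitor *Spry4* was at 29.4 and 37.4 against 16.2 and 15.6 (0.99 ± 0.10). Members lay above the other cells in both libraries for both genes, and the *Fgf10* call was lost in thinned cells and without replicate A.

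Genes of retinoic acid metabolism were 8 higher and 3 lower of 16 (median 0.37). *Rdh10*, which makes the retinal that ALDH1A2 oxidises, was at 125 and 97.2 CPM in members and 32.2 and 30.2 in the other cells (1.78 ± 0.069, edgeR adjusted p = 3.58e-17). *Rarb*, the receptor gene whose promoter is printed above, was at 34.1 and 30.6 against 15.9 and 14.3 CPM (1.04 ± 0.098). The degrading enzyme gene *Cyp26b1* was higher too, at 74.3 and 82.0 against 45.1 and 49.8 CPM (0.66 ± 0.064, lost in thinned cells). The binding protein gene *Crabp1* was lower (-1.05 ± 0.081) and *Crabp2* higher (0.43 ± 0.051, lost in thinned cells and without replicate B).

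Cell death genes did not move as a group, with 3 higher and 5 lower of 16 and a median of -0.14. *Bcl2l11*, which encodes the death-promoting protein BIM, was at 31.8 and 28.9 CPM in members and 17.7 and 16.7 in the other cells (0.76 ± 0.098, lost without replicate A). Both of the following genes, which the p53 protein induces, were lower, namely the cell cycle inhibitor gene *Cdkn1a* at 72.4 and 40.8 against 182 and 122 CPM (-1.48 ± 0.067) and *Bbc3*, the gene of PUMA, at 9.35 and 7.18 against 15.6 and 12.6 (-0.82 ± 0.15, lost in thinned cells and without dividing cells). In both libraries *Bcl2l11* was higher and *Cdkn1a* lower in members. Early-response genes of tissue dissociation fell with them, 8 of 11 being lower (*Fosb* 38.5 and 30.2 against 82.4 and 73.7 CPM), and their part in these differences was not tested.

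Differentiation genes were mostly lower than in the other cells or not called. All 11 contractile and stromal genes were lower (median -0.77), with the actin-binding gene *Tagln* at 1347 and 887 against 1880.3 and 1709.7 CPM (-0.77 ± 0.062). Of 17 cartilage genes 7 were lower and 1 was higher, with *Mia* at 63.1 and 64.9 against 171 and 164 CPM (-1.45 ± 0.060) and *Col2a1*, the cartilage collagen gene, at 519 and 747 against 610.4 and 701 (-0.13 ± 0.051, edgeR adjusted p = 0.0755). The *Col2a1* ranges of the classes overlapped between libraries. Of 11 tendon genes 5 were lower and 1 was higher, and the tendon regulator *Scx* was at 66.4 and 34.4 against 141 and 131 CPM (-1.47 ± 0.099). Joint genes were 3 higher and 6 lower of 15, perichondrium and bone genes 1 higher and 5 lower of 9, and genes of vascular signals 3 higher and 4 lower of 10.

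Genes of the G2 and M phases were higher in the sums, all 17 by a median of 0.42, whereas of 15 S phase genes 4 were higher and 11 were not called (median 0.13). Of the former, *Cenpf* was at 378 and 424 against 219 and 228 CPM (0.78 ± 0.045). Shares of cells did not follow in both libraries. A UMI of *Mki67* or *Top2a* was found in 69.3% of members and 59.6% of other cells in A, and in 67.1% and 71.3% in B (thinned to 3000 UMIs, 52.6% and 39.1% in A and 47.0% and 53.8% in B). Library B thus went against A. Without the cells that held either gene, none of 15 genes tested was higher and 2 were lower, with a median of -0.48. A UMI is found more readily in deep cells, and members were deeper, so this filter acted unevenly on the classes. The count therefore does not decide whether members divide less.

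Cells with at least 3 UMIs of *Gdf5* and outside the rule, 519 in A and 347 in B, served as a second comparison. This growth factor gene marks the joint interzone, where *Hoxd13* and *Wnt5a* are also found. They were not chosen as the cells most like the members. Every cell of this comparison class held at least 3 UMIs of *Gdf5* by selection. Among members 36 and 23 (14.3% and 14.0%) did, against 5.97% and 3.62% of all other cells, so the classes differ by *Gdf5* as well as by the rule. Median depths were 19100 and 20393 UMIs. Of 12477 genes tested, 22.3% were called, 11.6% higher and 10.7% lower in members, with a median log2 fold change of -0.0075. *Tfap2b* was again first by the rule for named genes, at 40.5 and 45.6 CPM in members against 1.51 and 0.735 in *Gdf5*-positive cells (5.20 ± 0.20, edgeR adjusted p = 3.26e-16). *Lef1* (61.9 and 63.2 against 8.24 and 8.45 CPM, 2.94 ± 0.11), *Lhx9* (2.49 ± 0.073) and *Dkk1* (135 and 143 against 32.8 and 19.7 CPM, 2.42 ± 0.11) were also higher. *Evx2* did not pass, at 14.0 and 11.6 against 9.21 and 10.8 CPM (0.43 ± 0.18, edgeR adjusted p = 0.0955), and *Hoxd13* differed by 0.68 ± 0.065, a call lost without either replicate.

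Joint genes were lower in members, 11 of 14 with none higher and a median of -1.32. The comparison cells were chosen for *Gdf5*, itself a joint gene and not among the 14. The count is thus a description and no independent evidence. Against all other cells the list was 3 higher and 6 lower of 15. *Wnt4* was at 8.10 and 1.48 CPM in members and 99.9 and 118 in *Gdf5*-positive cells (-4.32 ± 0.21), and the odd-skipped factor gene *Osr2* at 2.18 and 3.38 against 22.1 and 22.9 (-3.01 ± 0.21). *Ebf1* and *Jun*, transcription factor genes of the interzone, were at -1.08 ± 0.048 and -1.45 ± 0.051. *Pkdcc*, a secreted kinase gene needed for long bones, was at 18.2 and 9.30 against 110.4 and 136 CPM (-3.05 ± 0.15). Each of the named genes lay lower in both libraries, again a condition for any chosen by the rule for named genes. Dissociation response genes were lower as well (8 of 9, median -1.04), *Jun* itself being a gene of the early response, and their part was not tested. All 17 G2 and M phase genes were higher in members than in *Gdf5*-positive cells (median 0.41). Without dividing cells 1150 genes were called, against 2777.

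Retinoic acid genes were divided in this comparison, 2 higher and 6 lower of 14. *Aldh1a2* was higher in members at 213 and 325 against 69.2 and 87.1 CPM (1.80 ± 0.064), whereas *Rarb* was lower at 34.1 and 30.6 against 68.5 and 69.1 (-1.04 ± 0.093, edgeR adjusted p = 3.38e-09). FGF signalling genes were 10 higher and 2 lower of 16, with *Spry4* at 29.4 and 37.4 against 8.86 and 6.61 CPM (2.10 ± 0.15) and *Etv4*, an FGF-induced factor gene, at 18.2 and 17.7 against 3.99 and 4.41 (2.14 ± 0.20), while the ligand gene *Fgf18* was lower (-0.94 ± 0.13, lost in thinned cells and without either replicate). BMP targets were 9 higher and none lower of 11, *Msx2* at 1.59 ± 0.084 and *Bambi* at 1.44 ± 0.075. BMP ligands and receptors were divided, with *Bmp2* (1.93 ± 0.12) and *Bmp5* (1.73 ± 0.24) higher and the receptor genes *Bmpr1b* (-0.66 ± 0.11) and *Acvr2a* (-0.37 ± 0.13) lower of 11, and *Bmp7* (0.034 ± 0.089) and *Bmp4* (-0.14 ± 0.074) not called.

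Contractile and stromal genes, which were lower in members than in the other cells, were 8 higher and 1 lower of 11 against *Gdf5*-positive cells (median 0.36). *Acta2*, the smooth muscle actin gene, was at 1220.1 and 902 against 700.5 and 652 CPM (0.67 ± 0.058), and *Ccn1* was the gene that was lower (-1.05 ± 0.053). The count of higher genes was 5 with depth-matched cells, 4 in thinned cells, 2 with DESeq2 and none without either replicate, and with the stricter rule (at least 2 UMIs of *Hoxa13* and 4 of *Msx1*) 2 were higher and 3 lower (median -0.097).

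Members were next divided by *Aldh1a2*, since its UMIs were concentrated in few of them. At least 1 UMI was found in 90 members of A (35.9%) and 70 of B (42.7%). Of these, 40 and 39 held 10 UMIs or more, up to 100 and 116 in a cell, and 9 in each library held 1. A single UMI can come from free RNA, so the classes are not pure at this limit. Among the other cells, 271 and 160 held at least 3 UMIs of *Aldh1a2*, against 72 and 57 members, so most of the cells with that much *Aldh1a2* lay outside the rule. Depth went in opposite directions, with medians of 22789 and 21952 UMIs in positive and 20993 and 30083.5 in negative members.

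The divided members were tested over 10700 genes, 2.04% of which were higher and 1.8% lower in *Aldh1a2*-positive members (3.84% in all), with a median log2 fold change of -0.0054. *Aldh1a2*, which chose the classes, stayed in the fit and its adjustment, and its difference is no result. Retinoic acid genes were 5 higher and 1 lower of 10. *Rdh10* was at 273 and 235 CPM in positive and 38.5 and 21.9 in negative members (log2 fold change 3.04 ± 0.16, edgeR adjusted p = 7.14e-06). *Rarb* was at 75.5 and 72.2 against 9.88 and 7.85 CPM (3.004 ± 0.19, edgeR adjusted p = 2.30e-05), and *Crabp2* at 305 and 362 against 107 and 83.4 (1.76 ± 0.15). The 3 genes did not overlap between classes, and they kept their calls under all 13 alternatives. *Crabp1* was the gene that was lower (-0.84 ± 0.18), a call lost under 6 of 12.

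Ligands of the BMP family were also mostly higher in positive members. Of 12 BMP ligands and receptors tested, 5 were higher and 1 was lower, all 6 being ligands. *Bmp7* was at 73.4 and 93.1 CPM against 27.2 and 30.4 in negative members (1.48 ± 0.15), and *Bmp2* at 86.5 and 156 against 33.1 and 21.3 (2.03 ± 0.27, lost with DESeq2). *Gdf5* was at 92.0 and 85.3 against 16.6 and 12.1 CPM (2.58 ± 0.17), and *Gdf6*, its relative in joints, at 11.8 and 11.9 against 0.247 and 0.327 (5.15 ± 0.61), the last resting on few UMIs in negative members. The joint-associated genes *Osr1* (64.5 and 74.6 against 7.41 and 2.94 CPM, 3.63 ± 0.29) and *Sfrp2* (677 and 397 against 107 and 78.5 CPM, 2.47 ± 0.12) moved the same way. Of 12 joint genes tested, with *Gdf5* and *Gdf6* among them, 5 were higher, 1 was lower and 6 were not called. BMP targets did not follow, since none of 11 was higher and 3 were lower, with *Bambi* at 94.5 and 106 against 181 and 210.3 CPM (-1.002 ± 0.12).

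**Figure D3:**
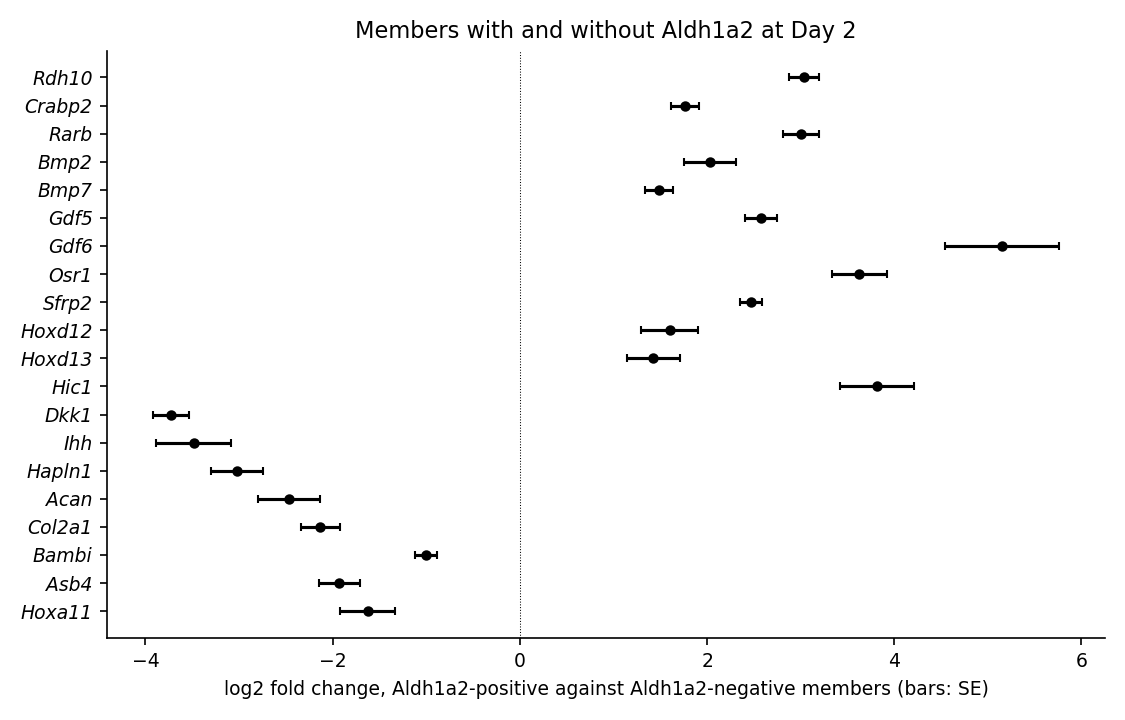
Log2 fold changes of Aldh1a2-positive against Aldh1a2-negative members at Day 2 for 20 genes, points with bars for the SE from the edgeR fit. The retinoic acid genes (Rdh10 at 3.04), BMP ligands and joint genes drawn lie to the right, and Dkk1 (-3.73), the BMP target Bambi and the cartilage genes drawn lie to the left. Of the whole joint list, 5 of 12 genes tested were higher, 1 was lower and 6 were not called.

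Cartilage genes were lower in positive members, 13 of 15 with none higher and a median of -1.69. *Col2a1* was at 235 and 164 CPM in positive and 686 and 1066 in negative members (-2.13 ± 0.21), and *Hapln1*, the link protein gene, at 4.64 and 4.18 against 29.9 and 43.5 (-3.02 ± 0.28). The aggrecan gene *Acan* was at 8.02 and 5.37 against 25.2 and 56.3 CPM (-2.47 ± 0.33), a call lost without replicate B, with the stricter rule and when members with *Acan* or with *Myod1* and *Myog* were left out. In that last fit, where cells were left out in part by a gene of this list, 11 of 15 cartilage genes were lower and 1 was higher. With the stricter rule, 6 of 14 cartilage genes were lower and 1 was higher, and the *Hapln1* call was lost. Muscle genes were lower too (3 of 3 tested), with *Myog* at 0.422 and 0 against 13.1 and 19.3 CPM, though 2 members in each library held at least 3 UMIs of *Myod1* and *Myog*.

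*Dkk1* was found mostly in members without *Aldh1a2*. It stood at 19.8 and 11.3 CPM in positive and 202 and 215 in negative members (-3.73 ± 0.19, edgeR adjusted p = 7.14e-06). Both genes were found in 9 and 7 members, *Aldh1a2* without *Dkk1* in 81 and 63, *Dkk1* without *Aldh1a2* in 56 and 42, and neither in 105 and 52. *Tgfb2*, a growth factor gene of the interdigit, was lower in positive members at 127 and 111 against 246 and 295 CPM (-1.20 ± 0.13), and *Hoxa11*, a gene of the forearm, at 19.8 and 10.1 against 38.5 and 58.2 (-1.62 ± 0.29, lost in thinned cells and with the stricter rule). *Hoxd13* was higher at 199 and 306 against 121 and 61.8 CPM (1.42 ± 0.28), a call lost without replicate B, with DESeq2 and with the stricter rule. Genes of cell division, cell death and the dissociation response had no call in either direction in this comparison, over 32, 15 and 9 genes tested.

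**Figure D4:**
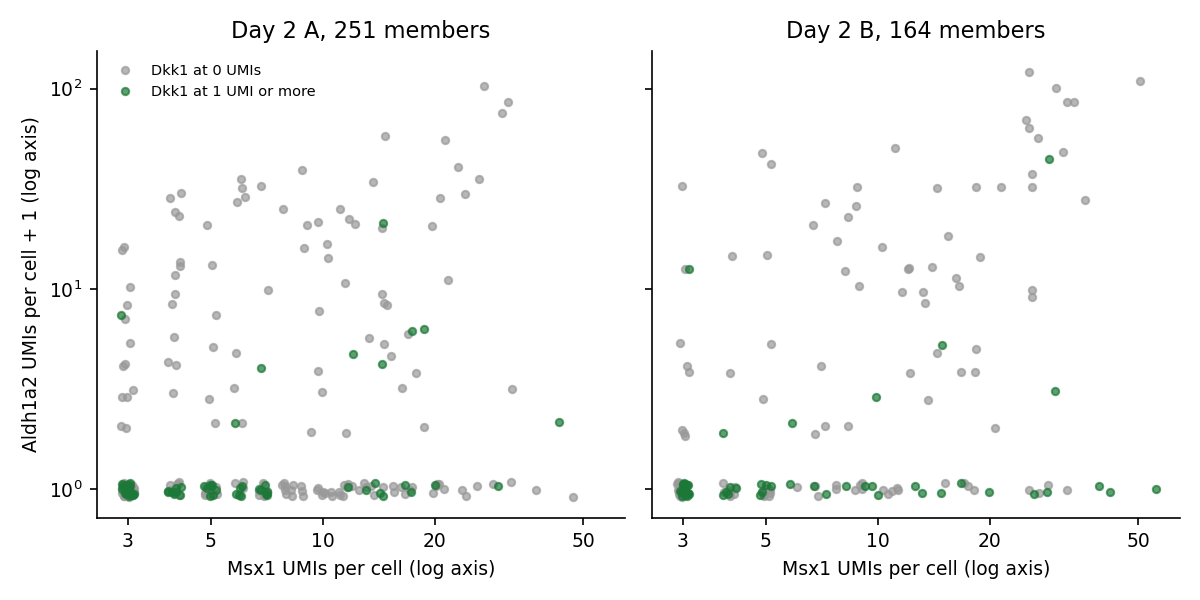
Msx1 UMIs (horizontal, log axis) and Aldh1a2 UMIs plus 1 (vertical, log axis) of each member in libraries A (left) and B (right), with small random shifts to separate points, grey for cells without Dkk1 and green for cells with at least 1 UMI of it. Cells with Aldh1a2 are mostly grey, and 9 and 7 cells held both genes.

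Levels also moved with the amount of *Msx1*, which the rule used, so that they are given with no test. In members with 3 to 4, 5 to 9, 10 to 19 and at least 20 UMIs of *Msx1*, *Aldh1a2* stood at 103, 174, 228 and 648 CPM in A and at 57.9, 193, 264 and 1039 in B. *Hoxd13* was at 98.6, 151, 189 and 232 and 84.4, 111, 217 and 236 CPM over the same steps, and *Lhx9* at 99.8, 247, 439 and 426 and 81.6, 131, 284 and 358. *Tfap2b* was at 9.73, 38.3, 75.3 and 72.9 CPM in A and 2.79, 21.5, 69.7 and 128 in B, lowest in members with 3 to 4 UMIs. These 4 genes were higher at 20 UMIs or more than at 3 to 4 in both libraries. *Col2a1* was at 725, 623, 246 and 166 CPM in A and at 1117, 948, 509 and 81.4 in B, and *Dkk1* was lowest in the last step, at 42.9 and 59.9 CPM. The last step held 24 and 28 members, and median depth was 21715.5 and 25873 UMIs in the first step and 23022.5 and 29327.5 in the last.

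Cells that met the same rule were fewer later, 56 and 64 at Day 7 (0.599% and 0.683% of cells) and 49 and 70 at Day 10 (0.587% and 0.838%). Their difference from the other cells of their own libraries was set against that at Day 2 in 1 fit over all 6 libraries. The Day 7 and Day 10 comparisons share the Day 2 libraries. The difference changed for 7.9% of 17898 genes at Day 7 (4.99% up, 2.91% down) and 4.46% at Day 10 (2.65% up, 1.82% down), with medians of -0.040 and -0.050. Later members were deeper than the other cells (31850.5 and 30086 against 19461 and 18260 UMIs at Day 7), and with depth-matched cells only 166 and 62 genes were called, against 1414 and 799. Thinning before the rule left 1 and 0 of them at Day 7 and 0 in each Day 10 library. Leaving out cells with *Acan* or *Myod1* and *Myog* took *Aldh1a2*-negative members from 50 and 62 to 26 and 36 at Day 7. At Day 10 it took them from 46 and 66 to 23 and 44. Other cells with fewer than 3 UMIs of *Gdf5* went from 9102 and 9073 to 3019 and 3527 at Day 7. At Day 10 they went from 8268 and 8241 to 4306 and 4216. Later members also lay closer to the limit of the rule. Their median *Msx1* count was 4 UMIs in both Day 7 libraries. For Day 10 it was 4 in A and 3.5 in B, whereas Day 2 members had 6 and 7. Since levels moved with *Msx1* at Day 2, this nearness may bear on the changes below, and its part was not tested. Whether later members are the same population as at Day 2 was not tested.

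*Aldh1a2* fell in the later cells. Its level in members was 213 and 325 CPM at Day 2 and fell to 11.8 and 1.38 by Day 7, with 3.42 and 4.35 in the Day 10 libraries. The other cells held 15.0 and 13.3, 2.11 and 1.95 and 1.84 and 2.44 on the same days. The log2 difference between members and other cells changed by -2.56 ± 0.28 at Day 7 and -3.36 ± 0.31 at Day 10 (edgeR adjusted p = 2.57e-12 and 5.13e-15), both calls being lost with DESeq2 and with depth-matched cells (-2.53 and -1.74). The 2 Day 7 libraries differed, the change being -4.75 without replicate A of Day 7 and -1.71 without replicate B, and in B the members were below the other cells. The Day 7 value of members rests on 27 UMIs, with 6 and 2 members positive. Members with exactly 3 UMIs of *Msx1* held *Aldh1a2* at 45.1 CPM (A) and 64.5 CPM (B) on Day 2. By Day 7 their values were 8.31 and 0 CPM, and by Day 10 they were 0 and 1.81. In such members *Hoxd13* went from 80.3 and 85.3 CPM on Day 2 to 41.6 and 57.6 on Day 7. *Lhx9* went from 93.8 to 51.1 CPM in A but from 60.5 to 66.7 in B. These values were not tested. *Bmp2* went from 52.8 and 68.9 CPM to 12.8 and 11.9 and 11.98 and 13.9 in members (-1.64 ± 0.22 and -1.22 ± 0.22), and *Lef1* from 61.9 and 63.2 to 11.8 and 9.64 and 2.85 and 2.18 (-1.16 ± 0.24 and -2.57 ± 0.37). These calls too were lost with depth-matched cells, where the changes were -1.17 and -0.76 for *Bmp2* and -1.56 and -2.95 for *Lef1*. Matching left 56 and 64 comparison cells at Day 7, as many as members. *Hoxd13* stayed above the other cells at all days, at 48.1 and 57.9 against 16.5 and 13.9 CPM at Day 7 and 50.8 and 47.9 against 18.0 and 14.0 at Day 10.

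**Figure D5:**
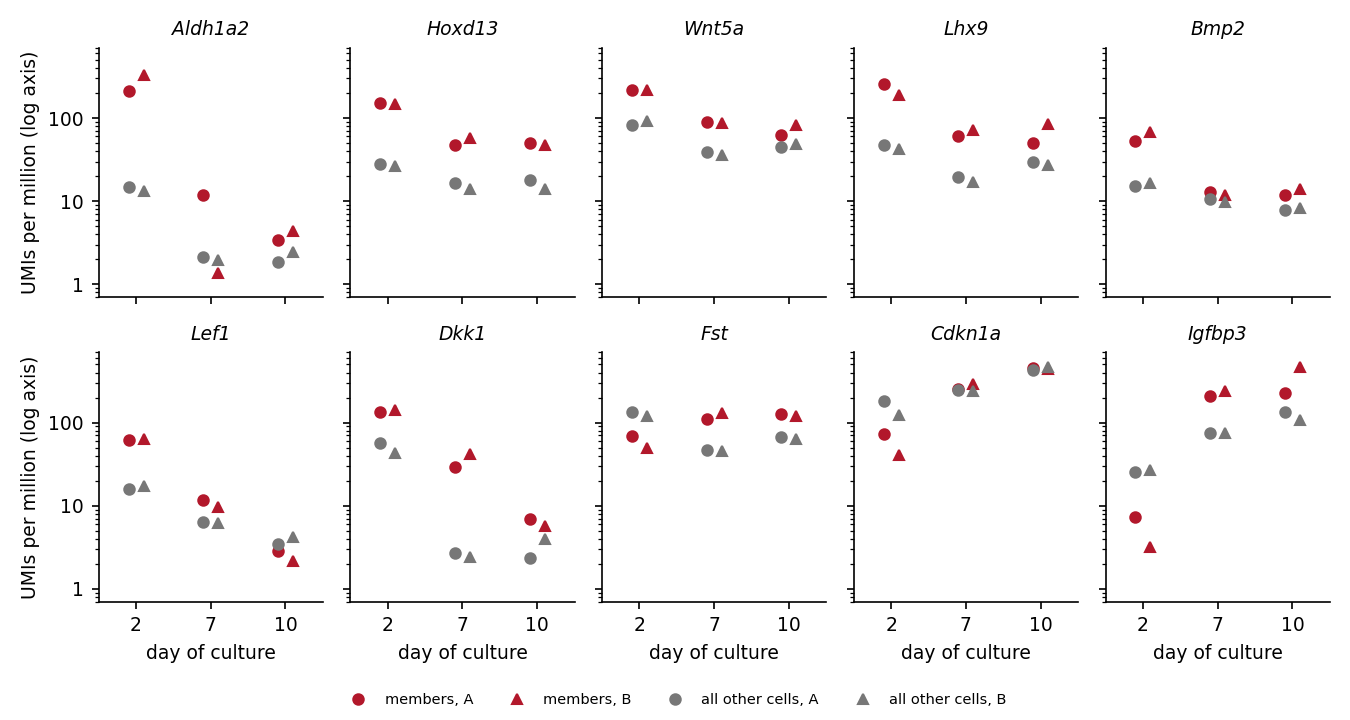
Summed CPM (log axis) of 10 genes in members (red) and all other cells (grey) at Day 2, Day 7 and Day 10, 1 point per library (circles A, triangles B). Aldh1a2 of members drops from above 200 CPM to below 12, and Fst and Igfbp3 of members pass from below to above the other cells.

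Some genes that were low in Day 2 members had turned by Day 7. The insulin-like growth factor binding protein gene *Igfbp3* was at 7.32 and 3.17 CPM in members against 25.5 and 26.6 in the other cells at Day 2, and at 209.9 and 238 against 75.3 and 75.9 at Day 7 (change 3.81 ± 0.22, edgeR adjusted p = 7.54e-27). *Fst* went from 68.7 and 50.1 against 134 and 121 CPM to 110.4 and 130.0 against 46.3 and 45.6 (2.49 ± 0.13), and the difference was called higher for 6 of 10 BMP antagonists at each of the later days, and lower for none. Both genes crossed from below to above the other cells in both libraries, and they kept their calls under all 14 alternatives at Day 7. *Cdkn1a* came level, from 72.4 and 40.8 against 182 and 122 to 253 and 289 against 248 and 242 CPM (1.58 ± 0.12, lost with depth-matched cells at 1.01). The difference was called higher for all 11 contractile and stromal genes at Day 7 (median 0.97) and for 5 of 11 at Day 10. With depth-matched cells it was called for 2 of 11 at Day 7 and none at Day 10 (medians 0.72 and 0.35), *Tagln* being at 0.52 and *S100a6* at 0.61, and for 1 of 10 BMP antagonists at each day. Cartilage genes went the opposite way, 11 of 17 lower and 1 higher at Day 7 (median -0.63) and 5 lower and 1 higher at Day 10. With depth-matched cells none of the 17 was called at either day. Without cells that held *Acan* or *Myod1* and *Myog*, cartilage genes were 4 lower and 1 higher at Day 7 (median -0.047). At Day 10 they were 10 higher with none lower (median 0.62). Cells were left out in part by *Acan*, itself among the 17, so these cartilage counts are a description and no independent evidence. Contractile and stromal genes were then 5 higher with none lower at Day 7, and BMP antagonists 8 and 7 of 10 higher with none lower. In those fits 1081 genes were called at Day 7 and 816 at Day 10, of which 714 and 555 were among the 1414 and 799.

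Other lists moved over the days as well, and the part of macrophage and dissociation response genes in the changes above was not tested. The difference was called higher for 4 of 7 macrophage genes at Day 7, and these genes summed to 0 CPM in members of A and 38.6 in members of B (84 UMIs), against 26.9 and 37.7 in the other cells. None of the 7 was called when cells with *Acan* or *Myod1* and *Myog* were left out, and none at Day 10. At Day 10 the difference was lower for 10 of 17 G2 and M phase genes with none higher (median -0.55), and higher for 5 of 11 dissociation response genes with none lower (median 0.50). With depth-matched cells these counts were 2 of 17 and 2 of 9, and for the macrophage list at Day 7 they were 4 of 6. At Day 7, 5 of 17 G2 and M phase genes were higher (median 0.20) and 2 of 11 dissociation response genes lower (median -0.18). With depth-matched cells, 0 of the 17 were higher and 1 was lower (median -0.59), and none of 9 dissociation response genes was called (median 0.48). Without cells that held *Acan* or *Myod1* and *Myog*, 12 of 17 were higher and 5 of 11 lower.

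*Dkk1* fell in both classes between Day 2 and Day 7. Members held 135 and 143 CPM against 56.1 and 43.2 in the other cells at Day 2, and 28.9 and 42.3 against 2.67 and 2.41 at Day 7, a change in the log2 difference of 2.32 ± 0.18 (edgeR adjusted p = 5.03e-19) that was called under all 14 alternatives. *Bmp4* was at 111 and 102 against 84.7 and 83.7 CPM and then 115 and 103 against 42.4 and 43.2 (1.01 ± 0.14). *Gdf5* went the other way, from 44.4 and 38.0 against 21.8 and 19.4 CPM to 1.47 and 2.76 against 8.68 and 10.9 (-3.21 ± 0.37). The calls for *Bmp4* and *Gdf5* were lost with depth-matched cells (0.98 and -2.18). Of 14 interdigital genes, the difference from the other cells was called lower for 6 and higher for 2 at Day 7, and lower for 6 and higher for none at Day 10. With depth-matched cells 1 of 13 was lower and 1 higher at Day 7, and none was called at Day 10.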

How the data were processed

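Single-cell RNA from 6 libraries of DID cultures was analysed from the UMI counts deposited by the authors, which per the labels came from Cell Ranger 6.1.2 with STAR on GRCm38 (mm10), with Seurat 4.1.0 named for later steps. The counts were not normalized. Filtered libraries at Day 2 held 206448286 and 166797398 UMIs. UMIs were summed over the cells of each class and library (at least 10 cells), and the sums were tested with edgeR 4.0.16 (quasi-likelihood test, TMM, its filter on low counts, the library as a block) in R 4.3.3, with Benjamini-Hochberg adjustment over all genes tested. The SE is the log2 fold change divided by the root of F. Both sums of a pair came from the same library, which is the pairing. The rule for members and all gene lists were chosen with earlier results of these data known. Named genes were those of the lists, and by rule the 12 (6 outside the first comparison) with the largest called change in each direction that was the same in both libraries, with at least 10 CPM in the higher class and leaving out unnamed gene models and mitochondrial and ribosomal protein genes. *Hoxa13* and *Msx1* stayed in the fits and their adjustment, and no test of them is reported. Alternatives were DESeq2 1.42.0, other scaling, filters and rules, thinned, depth-matched or non-dividing cells, no block and each replicate left out. The scripts were tested on simulated sums with a fixed spread. For changes over days, 25 (Day 7) and 24 (Day 10) of 100 simulated log2 changes of 1 were recovered, and 67 of 100 changes of 2 at each. In the Day 2 comparisons 66 to 79 and 81 to 96 of 100 were recovered. A gene not called over days may thus have changed. Promoters came from RefSeq (GRCm38.p6).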

Additional observations from a re-analysis of the deposited data

Results flagged for a closer look

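Between Day 2 and Day 7, the log2 difference between members and the other cells was tested as an interaction with edgeR's quasi-likelihood test, with 18 changes given here, each at a Benjamini-Hochberg adjusted p under 0.05. The difference was lower at Day 7 for *Aldh1a2* (-2.56), *Hoxd13* (-0.64), *Lhx9* (-0.45), *Lhx2* (-0.80), *Bmp2* (-1.64), *Bmp7* (-1.55), *Gdf5* (-3.21), *Lef1* (-1.16), *Ifitm1* (-3.41) and *Twist1* (-0.73). It was higher at Day 7 for *Bmp4* (1.01), *Dkk1* (2.32), *Fst* (2.49), *Igfbp3* (3.81), *Tagln* (0.95), *Cnn1* (1.68), *S100a6* (1.37) and *Cdkn1a* (1.58). Without replicate A of Day 7 the calls for *Hoxd13* (-0.42), *Lhx9* (-0.27) and *Lhx2* (-0.79) were lost, and without replicate B those for *Lhx2* (-0.82) and *Bmp7* (-1.12), while *Aldh1a2* was at -4.75 and -1.71 and *Ifitm1* at -3.95 and -2.82. Without replicate A of Day 2 the calls for *Lhx9* (-0.27) and *Lhx2* (-0.78) were lost and *Igfbp3* was at 4.66. With depth-matched cells 13 of the 18 lost their call, the exceptions being *Lhx9* (-1.32), *Dkk1* (4.64), *Fst* (2.34), *Igfbp3* (4.59) and *Cnn1* (1.22), and *S100a6* was at 0.61 and *Tagln* at 0.52. Without cells that held *Acan* or *Myod1* and *Myog*, the calls for *Lhx2* (-0.80), *Lef1* (-0.69) and *Tagln* (0.21) were lost, while *Lhx9* was at -1.08, *Bmp7* at -2.61, *Gdf5* at -4.87, *Dkk1* at 3.17 and *Cnn1* at 0.79.

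Between Day 2 and Day 10, the log2 difference between members and the other cells was tested as an interaction with edgeR's quasi-likelihood test, with 17 changes given here, each at a Benjamini-Hochberg adjusted p under 0.05. The difference was lower at Day 10 for *Aldh1a2* (-3.36), *Hoxd13* (-0.80), *Wnt5a* (-0.66), *Lhx9* (-1.04), *Bmp2* (-1.22), *Bmp7* (-1.51), *Lef1* (-2.57), *Spry4* (-1.99), *Twist1* (-0.89), *Mki67* (-0.91) and *Cenpf* (-1.19, but 0.33 and not called without dividing cells). It was higher at Day 10 for *Fst* (2.01), *Igfbp3* (3.75), *Aspn* (3.19), *Dkk2* (2.47), *Rspo3* (1.72) and *Cdkn1a* (1.45). The *Bmp7* call was lost without either replicate of Day 10 (-1.57 and -1.40), *Lhx9* was at -0.66 and -1.57 without replicates A and B, *Mki67* at -0.55 and -1.52, and *Igfbp3* at 4.37 and 3.02. Without replicate A of Day 2 the calls for *Bmp7* (-1.54) and *Wnt5a* (-0.55) were lost, *Igfbp3* was at 4.60 and *Aspn* was at 4.94, against 2.47 for *Aspn* without replicate B. With depth-matched cells 11 of the 17 lost their call, the exceptions being *Spry4* (-2.67), *Twist1* (-0.92), *Fst* (1.41), *Igfbp3* (4.53), *Aspn* (3.30) and *Rspo3* (1.94). Without cells that held *Acan* or *Myod1* and *Myog*, the *Bmp7* call was lost (-0.24), while *Lef1* was at -1.87 and *Spry4* at -2.58. Both days were set against the same Day 2 libraries. Later members were deeper than the other cells of their libraries, less so at Day 10, and lay closer to the limit of the rule. With depth-matched comparison cells the calls over all genes numbered 166 at Day 7 and 62 at Day 10, against 1414 and 799. Matching also left only as many comparison cells as members, and the parts of depth and cell number were not told apart.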

How the results depend on the processing

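The number of genes called depended on the setting more than the direction of the named genes did. Genes named by the rule had a called change of the same direction in both libraries by selection. Their stable direction was thus in part built in. Against the other cells (3029 genes), DESeq2 called 1273, depth-matched cells 1656, thinned cells 767 and non-dividing cells 1017, and leaving out a replicate (of Day 2, with the spread taken from the libraries of all 3 days) 776 to 891. Against *Gdf5*-positive cells (2777), DESeq2 called 454, thinned cells 820, non-dividing cells 1150, a spread shared by all 6 libraries 1394, and leaving out a replicate 169 to 181. Between *Aldh1a2* classes (411), DESeq2 called 133, no filter 802, depth-matched cells 843, thinned cells 114, the stricter rule 201, leaving out cells with *Acan* or *Myod1* and *Myog* (an alternative added after seeing the data) 637, and leaving out a replicate 270 to 406. For the change to Day 7 (1414), DESeq2 called 772, depth-matched cells 166, thinned cells 336, non-dividing cells 544, and leaving out a replicate of Day 2 or, added after seeing the data, of the later day 730 to 1071. For the change to Day 10 (799) these were 373, 62, 147, 363 and 421 to 884. Depth-matched, thinned and non-dividing settings and those without a replicate use fewer UMIs, cells or libraries. The cause was not tested. Without the replicate block, that is, ignoring the pairing of sums by library, the 5 counts were 1522, 1452, 446, 818 and 311.

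Member shares at Day 2 were 0.134% and 0.154% when cells were thinned before the rule, 1.49% and 0.883% with the stricter rule, beside those among cells with at least 10000 UMIs (3.11% and 2.88%). Without dividing cells *Cenpf* (-0.59) and *Birc5* (-0.73) reversed against the other cells, as did *Cenpf* in the change to Day 10 (0.33). The filter on dividing cells depends on depth. *Wnt5a* reversed in the change to Day 7 without replicate A (0.034; without replicate B, -0.19). Of the values for named genes under the alternatives, 940 were on the same side of the threshold and 102 lost their call in the first comparison, 389 and 20 in the second, and 408 and 52 between *Aldh1a2* classes. Since some of these genes were chosen by their calls, the counts are a description. The share of calls that were higher at Day 7 was 63.2%, but 46.1% in thinned and 78.3% with depth-matched cells.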
